A study of Homo sapiens with 8 samples.

Results

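The RNA that came down with hnRNP U was compared between mitotic and interphase cells. The comparison rests on 4 of the 8 libraries of the series, chosen by their labels as immunoprecipitation (IP) libraries: 2 from interphase and 2 from mitosis. The cells were hTERT-RPE1, which come from human retinal pigment epithelium and carry telomerase that keeps them dividing. The interphase cells spent 24 h in 2 mM thymidine, an excess that blocks DNA replication, so they are arrested cells and not a freely cycling population. The mitotic cells had the same 24 h in 2 mM thymidine, were then released for 6 h and were held overnight in STLC, an inhibitor of the spindle motor Eg5 (KIF11). Both IP groups were lysed in the same detergent buffer, precipitated with the same anti-hnRNP U antibody, depleted of ribosomal RNA and made into directional libraries. The other 4 libraries, 2 per phase and without IP, were made from the same 2 cell states. The labels do not say whether replicates were separate cultures, so p-values measure only the spread between these libraries, which may be technical. No control-antibody IP entered the comparison, and RNA bound by hnRNP U and RNA held on the beads cannot be told apart.

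hnRNP U, also called SAF-A, is an abundant nuclear protein that binds RNA and DNA and helps to organise chromatin. In mitosis the nuclear envelope breaks down, transcription largely stops, and nuclear proteins and cytoplasmic mRNA can meet in 1 compartment. Replication-dependent histone genes are transcribed in S phase, and their mRNA ends in a short stem-loop in place of a poly(A) tail. That stem-loop is bound by SLBP, and the mRNA is destroyed when S phase ends. Genes for cell division are transcribed late in the cycle and peak as cells enter mitosis.

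FPKM is a fragment count divided by gene model length and by the library's mapped fragments, so levels of different genes are compared per length. Changes are given as differences of log2(FPKM + 1), mitosis minus interphase, which understates changes of genes near or below 1 FPKM. A gene was called when the limma adjusted p was below 0.05. Because FPKM is a share of each library, a change is a change in the makeup of the RNA and not in its amount, and fewer cells with a transcript and less of it per cell cannot be told apart. Replicates correlated across the 13471 genes of the gene table with a Pearson's r of 0.989 for interphase and 0.990 for mitosis. Log2 values of the 2 replicates differed with an SD of 0.29 in each phase. Total fragments are unknown. Relative depth, read from the steps between low values and set to 1 for the first interphase library without IP, was 1.08 and 0.937 in the interphase IP and 0.639 and 1.19 in the mitotic IP. Of 12 markers of retinal pigment epithelium, 5 were in the table (KRT8, KRT18, MITF, OTX2 and PMEL), while RPE65, BEST1, RLBP1, TYR, TYRP1, SERPINF1 and TTR were not. Of other markers, 4 of 8 mesenchymal (COL1A1, PDGFRB, THY1 and VIM), 2 of 3 neuronal (SNAP25 and TUBB3) and 0 of 5 blood markers were in the table. In the interphase IP the retinal markers summed to 93.6 and 107 FPKM, the mesenchymal markers to 1767 and 1863 and the neuronal markers to 22.0 and 23.9. The mesenchymal sum includes VIM, the highest gene of the actin and focal adhesion list. Its file interval is 2.50 times the gene and is shared with another gene, so the sums do not rank cell identities. HNRNPU itself had 59.5 and 59.5 FPKM in the interphase IP and 47.6 and 54.4 in the mitotic IP (log2 change -0.22 ± 0.13 SE, adjusted p = 0.184).

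The precipitated RNA changed broadly between the phases. Of 13471 genes, limma called 7678, which is 57% of all genes. Of these, 4494 (33.4% of all genes) were higher and 3184 (23.6%) were lower in the mitotic IP. These 2 shares are the background for every count of called list members below. In all 7678 the 2 mitotic values lay entirely above or below the 2 interphase values. Such separation was common, with 10673 of all 13471 genes (79.2%), called or not, so it adds little to the calls. Calls with a change of at least 2-fold numbered 1732 higher and 1137 lower. The median change over all genes was 0.08 in the IP and -0.00 without IP, and the SD over genes was 0.85 and 0.74. Median centring of the libraries moved the median of all genes by -0.11 and gave 3846 higher and 3930 lower calls, so changes of about that size have no fixed direction. Across genes the change in the IP and the change without IP had a Spearman's rho of 0.36. They share no library, although genes are not independent replicates. In both kinds of library 2025 genes were called higher and 1434 lower, while 808 were called higher in the IP and lower without IP and 461 the reverse. A test of the difference between the phase changes, over all 8 libraries, called 3662 genes (27.2%) with a higher change in the IP than without IP and 2677 (19.9%) with a lower one.

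**Figure D1:**
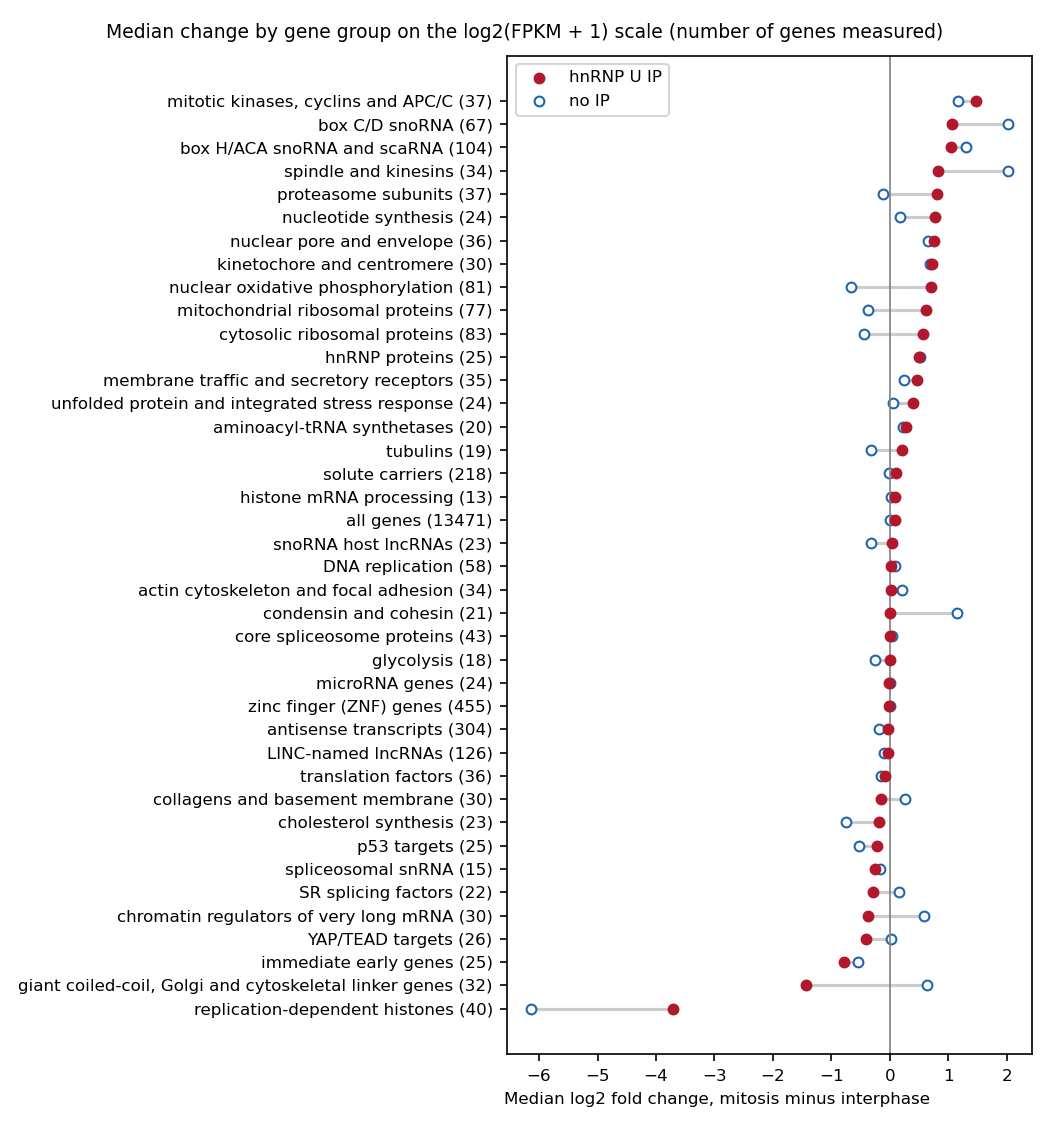
Median log2 fold change from interphase to mitosis (x axis, log2(FPKM + 1)) for each gene group with at least 13 measured genes, in the hnRNP U IP (filled points) and without IP (open points), with the number of genes in brackets. Histones sit at -3.71 in the IP and -6.13 without IP, and the coiled-coil, oxidative phosphorylation and ribosomal protein groups have medians of opposite sign in the 2 kinds of library.

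By class of RNA, mRNA and snoRNA made up most of the summed FPKM of the IP. Protein-coding genes other than histones and ribosomal proteins held 64.9% and 75.6% of the sum in the 2 interphase libraries and 58.6% and 71.4% in the 2 mitotic libraries. These ranges overlapped, and replicate 1 was below replicate 2 in both phases. Small nucleolar and Cajal body RNAs, which guide chemical modification of ribosomal and spliceosomal RNA, held 13.7% and 7.89% in interphase and 19.5% and 12.2% in mitosis. Spliceosomal snRNAs held 9.58% and 3.50% in interphase and 5.43% and 2.71% in mitosis. Both small RNA classes differed more between replicates 1 and 2 than between the phases. The 4 structured RNAs 7SK, RMRP, RPPH1 and Y1 held 4.65% and 3.90% in interphase and 3.10% and 2.99% in mitosis, against 24.7% to 29.5% without IP. The groups did not overlap for this class in the FPKM sum. Weighted by transcript length they overlapped, and 0 of 5 measured Pol III structured RNAs were called by limma, with a median change of -0.02. Short genes weigh heavily in a sum of FPKM: weighted by transcript length, protein-coding genes other than histones and ribosomal proteins held 94.4% and 95.2% in interphase and 92.0% and 93.8% in mitosis.

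**Figure D2:**
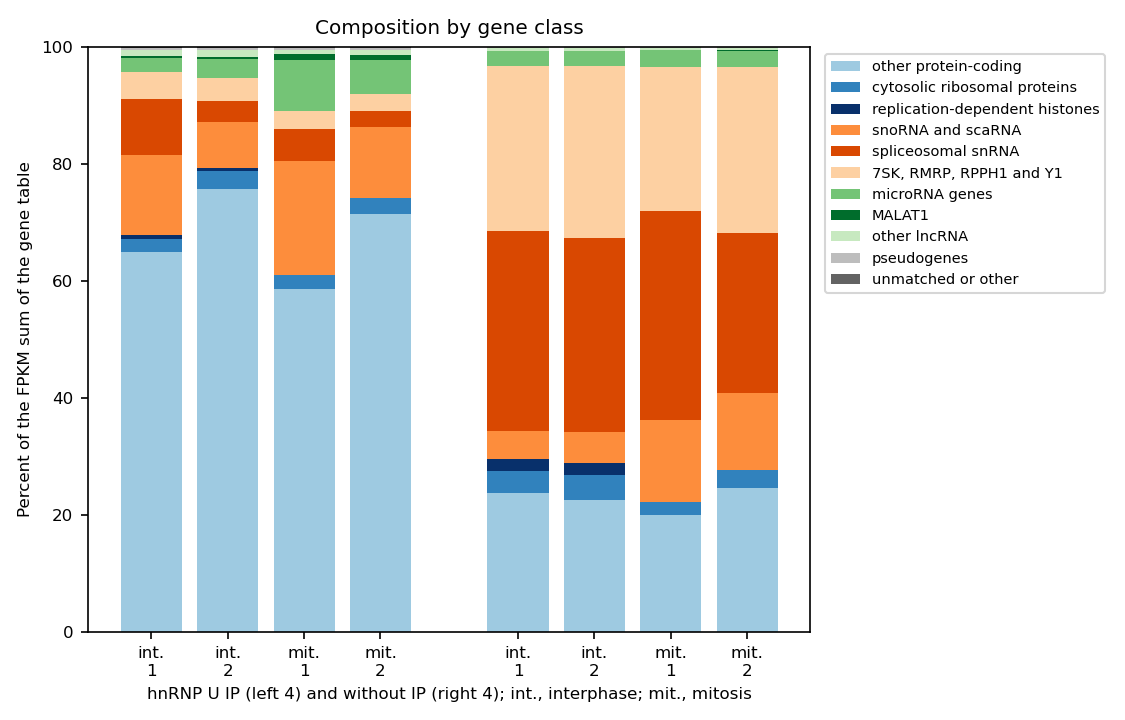
Percent of the FPKM sum of the gene table (y axis) taken by each gene class in each library (x axis: 4 hnRNP U IP libraries, then 4 without IP). The dark blue histone band is visible at 0.578% and 0.624% in the interphase IP and shrinks to 0.0222% and 0.0236% in the mitotic IP; snRNA and snoRNA bands differ between replicates of a phase.

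Replication-dependent histone mRNAs had the lowest median change of the gene lists. All 40 measured histone genes were called lower in the mitotic IP, with changes from -5.02 to -1.83 and a median of -3.71, against a median of 0.08 over all genes. The class fell from 0.578% and 0.624% of the FPKM sum to 0.0222% and 0.0236%. The medians by histone type were -4.91 for the 3 H1 genes, -3.79 for 14 H2A genes, -3.34 for 11 H2B genes, -3.78 for 6 H3 genes and -3.57 for 6 H4 genes. Without IP the fall was deeper, with a median of -6.13, and 39 of the 40 genes had a significantly smaller fall in the IP than without IP. In mitosis the 40 genes summed to 102 and 89.6 FPKM in the IP and 293 and 311 without IP. With a pseudocount of 0.1 the median in the IP was -4.40, so the size of the contrast depends on the pseudocount. Near-identical copies of core histone genes can exchange reads, so single members are less certain than the class. Histone genes made up the 10 largest falls among long RNAs that met the rule for naming genes.

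HIST1H1C, a linker histone gene (GRCh38 chromosome 6, 26055787 to 26056428), had 171 and 170 FPKM in the interphase IP and 3.90 and 4.70 in the mitotic IP. Its change was -5.02 ± 0.13 (SE, adjusted p = 4.46e-06), and without IP it went from 942 and 959 to 6.48 and 7.53 FPKM. HIST1H4B had 149 and 139 FPKM in interphase and 5.10 and 5.66 in mitosis, a change of -4.51 ± 0.12. HIST1H3H had 82.0 and 75.8 FPKM in interphase and 2.77 and 2.48 in mitosis, a change of -4.46 ± 0.13. In each of these genes both mitotic libraries were far below both interphase libraries. HIST1H1E, HIST1H3C, HIST1H2AB, HIST1H1B and HIST1H2AH changed by -4.91, -4.81, -4.65, -4.60 and -4.56 on the log2 scale. HIST1H2BG and HIST1H2BD changed by -4.47 and -4.41. HIST1H4C, the core histone gene with the highest mean level in the IP, had 162 and 189 FPKM in interphase and 13.5 and 12.1 in mitosis. The 3′ stem-loop is the element these mRNAs share, and it is shown for 4 of the named genes, in the sense of the transcript, with the stem and loop in capitals.
HIST1H3H: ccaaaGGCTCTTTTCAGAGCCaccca
HIST1H2BG: tcaaaGGCTCTTTTCAGAGCCactca
HIST1H2BD: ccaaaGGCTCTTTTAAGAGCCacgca
HIST1H4B: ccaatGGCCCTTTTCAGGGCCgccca
The consensus histone stem-loop of 16 nt was searched on the sense strand of the annotated transcripts of GENCODE release 29. It was found in 17 of the 40 histone genes (42.5%) and in 4 of 13126 other matched genes (0.0305%). No match says only that these letters are not in the annotated transcript.

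Genes that serve histone mRNA and DNA replication were split in direction, and of those with a known role in histone mRNA some fell and others rose. SLBP, which binds the stem-loop, had 38.3 and 38.7 FPKM in the interphase IP and 14.8 and 14.3 in the mitotic IP (-1.35 ± 0.12, adjusted p = 8.71e-05). CASP8AP2, a histone locus body protein also called FLASH, had 22.6 and 25.1 FPKM in interphase and 7.67 and 8.66 in mitosis. Without IP, CASP8AP2 went the other way, from 5.68 and 3.65 to 8.67 and 8.08 FPKM, and the difference between the 2 changes was -2.19 (adjusted p = 0.00019). NPAT, the activator of histone transcription, fell by 0.73 ± 0.14. CPSF2, CSTF2 and ERI1, of the same list of histone mRNA processing genes, were called higher in the mitotic IP. CCNE2, a cyclin of the G1 to S transition, had 21.3 and 23.9 FPKM in interphase and 2.71 and 2.81 in mitosis. Its file interval is longer than the gene and overlaps another, so its reads are less certain. Of 13 measured genes of histone mRNA processing, 5 were called higher and 3 lower, and without the second interphase library 2 in place of 5 were higher. Of 58 DNA replication genes 18 (31.0%) were higher and 18 (31.0%) lower, against 33.4% and 23.6% of all genes.

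Outside the histones, the largest falls among long RNAs that met the same rule included DDIT4, MXI1, FBXO32, PPP1R3C, KTN1, RBBP8, BMF, IFI16 and FAM111B. They were singled out after their values were seen. FBXO32, a ubiquitin ligase subunit known from muscle wasting and as a FOXO target, had 201 and 203 FPKM in the interphase IP and 16.5 and 15.4 in the mitotic IP (-3.58 ± 0.12, adjusted p = 6.08e-06). Without IP, FBXO32 went from 71.2 and 67.9 to 8.94 and 8.46 FPKM. DDIT4, a stress-induced inhibitor of mTORC1, had 15.4 and 17.0 FPKM in interphase and 0.305 and 0.383 in mitosis. MXI1, an antagonist of MYC, had 20.1 and 26.9 FPKM in interphase and 0.967 and 0.870 in mitosis. BMF, a pro-apoptotic BH3-only protein, and PPP1R3C, a glycogen-targeting phosphatase subunit, changed by -3.33 and -3.51, and their changes without IP were -3.62 and -3.57. RBBP8, which encodes the DNA end resection factor CtIP, had 55.6 and 66.7 FPKM in the interphase IP and 4.66 and 5.41 in the mitotic IP. Its level without IP went from 28.9 and 28.7 to 18.5 and 21.3 FPKM, and the difference between the changes was -2.85 (adjusted p = 4.8e-05).

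The mRNAs of very large coiled-coil, Golgi and cytoskeletal linker proteins fell in the IP, and none was called lower without IP. Of the 32 measured members 0 were called higher and 27 lower, with a median of -1.43. Without IP their median was 0.63, with 20 called higher and 0 lower. The change was significantly lower in the IP than without IP for 31 of 32 members, where 19.9% of all genes had such a call. The list was drawn up with earlier results of these data known, so its direction is not independent evidence. KTN1 encodes kinectin, an integral membrane protein of the endoplasmic reticulum (chromosome 14, 55559072 to 55701526). It had 169 and 225 FPKM in the interphase IP and 17.3 and 18.6 in the mitotic IP (-3.37 ± 0.16, adjusted p = 1.96e-05). Without IP it had 90.5 and 64.2 FPKM in interphase and 80.5 and 74.4 in mitosis, which overlap. GOLGA4, a golgin of the trans-Golgi network, had 43.3 and 39.6 FPKM in the interphase IP and 4.72 and 5.50 in the mitotic IP. MYH9, the heavy chain of non-muscle myosin IIA, had 169 and 99.8 FPKM in interphase and 35.8 and 33.1 in mitosis, while without IP it had 82.2 and 71.0 and then 157 and 90.8. The mitotic IP values of these 3 genes were below their values without IP, and the interphase IP values of KTN1 and GOLGA4 were above them. TPR, a nuclear pore basket protein with a long coiled coil, fell by 2.11 ± 0.21.

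**Figure D3:**
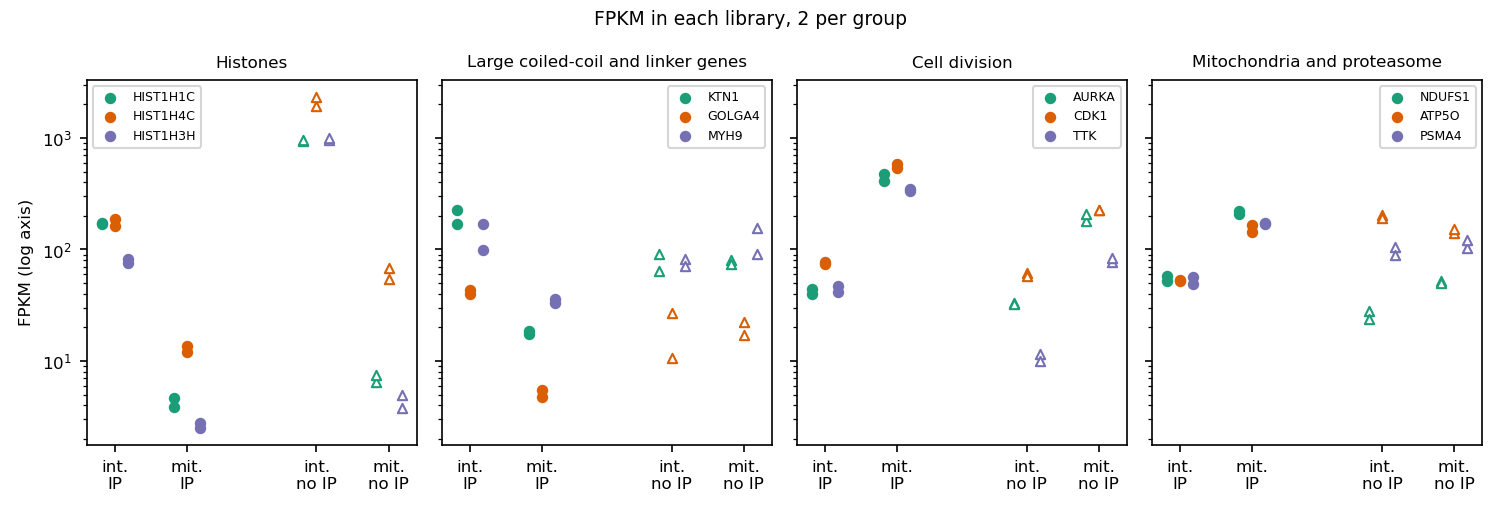
FPKM of 12 genes (y axis, log scale) in each library, as filled circles for the 2 IP libraries and open triangles for the 2 libraries without IP in each phase. KTN1, GOLGA4 and MYH9 are lower in both mitotic IP libraries than in either interphase one, which does not hold without IP, the histone genes drop in both, and AURKA, CDK1 and TTK rise in both.

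Chromatin regulators showed a like contrast between the IP and the RNA without IP. Of 30 chromatin regulators with very long mRNA, 14 were called lower and 4 higher in the mitotic IP, and the change was significantly lower than without IP for 24 and higher for 0. Their median was -0.38, and it was 0.00 once smooth trends on length and GC (loess, a local regression) were taken out, with 10 higher and 11 lower. Without the first or without the second interphase IP library, 2 of these genes in place of 4 were called higher. CHD4, the ATPase of the NuRD complex, had 35.1 and 27.5 FPKM in interphase and 7.02 and 7.46 in mitosis (-1.96 ± 0.15). ATRX, a chromatin remodeller, had 19.3 and 18.8 FPKM in interphase and 5.45 and 5.53 in mitosis. SETD2, a histone methyltransferase, had 18.6 and 20.3 FPKM in the interphase IP and 19.7 and 21.4 in the mitotic IP, which overlap, while it rose from 5.72 and 6.53 to 15.0 and 14.6 without IP. PRPF8, a core spliceosome protein, had 29.1 and 23.0 FPKM in interphase and 3.57 and 6.28 in mitosis. Without IP PRPF8 had 7.27 and 8.09 FPKM in interphase and 8.07 and 8.40 in mitosis, which overlap. SRPK1, a kinase of SR proteins, fell by 1.27 ± 0.12 in the IP and rose by 0.62 without IP, and SR splicing factor genes were called lower in 10 and higher in 4 of 22, with 2 higher without the second library of either phase. RAD21, the kleisin subunit of cohesin, had 156 and 164 FPKM in the interphase IP and 85.3 and 92.6 in the mitotic IP, while without IP it rose by 1.04.

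The pattern was not limited to these lists. Across 12112 protein-coding genes with an annotated coding sequence, the change in the IP fell with transcript length (Spearman's rho -0.26) and the change without IP rose with it (0.33). The genes were split into 5 equal groups by each feature. In the group with the shortest transcripts (up to 2209 nt) the median change was 0.40 in the IP and -0.32 without IP. In the group with the longest (6065 nt and above) it was -0.13 in the IP and 0.20 without IP. Coding length gave rho -0.16 and 0.36, and 3′ UTR length gave -0.23 and 0.19. The share of A in the coding sequence gave -0.23 in the IP and 0.28 without IP, and the GC content of the transcript gave 0.24 and -0.24. These values are descriptions over genes that share libraries, and length, GC content and A content are related to each other. In the 573 genes in both the group of longest coding sequences and the group of highest A content, 52.5% were called lower in the mitotic IP and 18.2% higher, with a median of -0.45 in the IP and 0.48 without IP. In the 643 genes in both the group of shortest coding sequences and the group of shortest 3′ UTRs, 56.3% were called higher and 10.6% lower, with a median of 0.56 in the IP and -0.49 without IP. Length alone did not order the groups. Genes with the longest coding sequences and the lowest A content had a median of 0.03, with 22.2% called higher and a smaller share called lower. Genes with the shortest coding sequences had a median of -0.10 and 34.6% lower where the 3′ UTR was longest, and -0.09 and 33.5% lower where A content was highest. Both replicate pairs gave the same order of the 5 groups for transcript length and for A content.

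**Figure D4:**
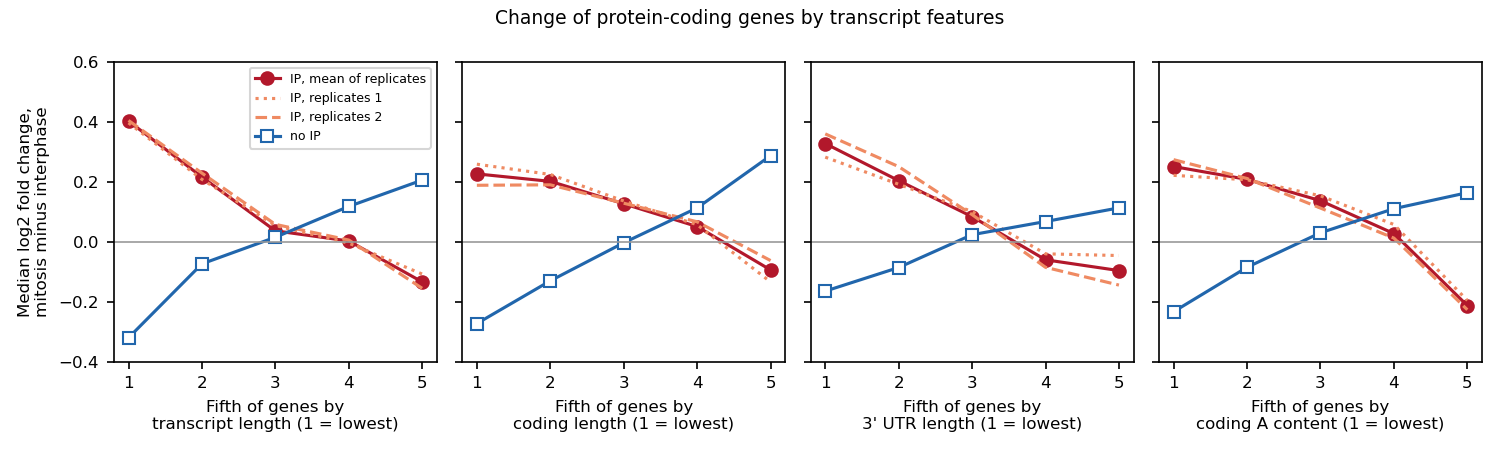
Median log2 fold change from interphase to mitosis (y axis) of protein-coding genes split into 5 equal groups (x axis) by transcript length, coding length, 3′ UTR length and A content of the coding sequence, in the IP (circles; dotted and dashed lines for the 2 replicate pairs) and without IP (squares). The 2 kinds of library slope in opposite directions for each feature, from 0.40 to -0.13 in the IP and from -0.32 to 0.20 without IP for transcript length.

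Short housekeeping mRNAs formed the opposite group. Of 81 nuclear genes of oxidative phosphorylation, which build the respiratory chain, 65 were called higher and 2 lower in the mitotic IP. The median was 0.71 in the IP and -0.67 without IP, and for 72 of 81 the change was significantly higher in the IP than without IP (27.2% of all genes). NDUFB9, a subunit of complex I, had 18.5 and 19.6 FPKM in the interphase IP and 58.2 and 63.8 in the mitotic IP (1.63 ± 0.12, adjusted p = 5.51e-05). Without IP, NDUFB9 had 103 and 113 FPKM in interphase and 82.2 and 80.2 in mitosis. ATP5O, a subunit of ATP synthase, had 52.1 and 53.2 FPKM in the interphase IP and 142 and 167 in the mitotic IP, and without IP it went from 204 and 192 to 140 and 154. NDUFS1, the largest subunit of complex I, had 57.6 and 52.0 FPKM in interphase and 223 and 206 in mitosis, and it also rose without IP. In the interphase IP the levels of NDUFB9 and ATP5O were below those without IP, and in the mitotic IP those of ATP5O were in the same range.

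Proteasome, ribosomal protein and nucleotide synthesis genes were more often called higher than lower, and glycolysis genes were mixed. Of 37 proteasome subunit genes, 28 were called higher and 0 lower, with a median of 0.81 in the IP and -0.12 without IP. PSMD9, a proteasome assembly chaperone, had 8.44 and 8.99 FPKM in the interphase IP and 29.6 and 37.7 in the mitotic IP. Of 77 mitochondrial ribosomal protein genes 52 were called higher and 2 lower (median 0.61 in the IP, -0.37 without IP), among them MRPL15 with 15.4 and 16.8 FPKM in interphase and 61.0 and 71.7 in mitosis. Of 83 cytosolic ribosomal protein genes 40 were called higher and 7 lower (median 0.58 in the IP, -0.45 without IP). The median was 0.27 with quantile normalization and 0.31 with length and GC trends taken out. The class as a whole held 2.30% and 3.08% of the FPKM sum in interphase and 2.39% and 2.74% in mitosis, which overlap. RPL28 was among the 10 largest rises of long RNAs that met the naming rule, with 11.3 and 12.4 FPKM in interphase and 84.6 and 87.3 in mitosis, and RPL4 was the largest fall of the group, with 469 and 628 FPKM in interphase and 103 and 97.4 in mitosis. The RPL4 interval overlaps that of another gene of the table. Of 24 genes of nucleotide synthesis 15 were called higher and 2 lower. DTYMK, thymidylate kinase, had 12.9 and 11.7 FPKM in interphase and 51.3 and 40.3 in mitosis, while without IP it had 82.6 and 85.3 and then 79.1 and 77.3. RRM2, the small subunit of ribonucleotide reductase, rose by 1.27 in the IP and by 1.27 without IP. Among 18 glycolysis genes 6 (33.3%) were higher and 4 (22.2%) lower, which is near the 33.4% and 23.6% of all genes. The 6 became 3 without either interphase library or without the second mitotic library, and the 4 became 1 without the first interphase library and 2 without the first mitotic library. LDHA, lactate dehydrogenase A, had 168 and 207 FPKM in the interphase IP and 445 and 478 in the mitotic IP, and without IP 181 and 194 and then 179 and 206. PKM, pyruvate kinase, fell by 1.07 ± 0.20. For the tubulin gene TUBB4B, given next, the file interval is 2.62 times the gene, so its reads are less certain. TUBB4B and TUBA1B, genes of the tubulin heterodimer, rose by 2.21 and 1.13, and 9 of 19 tubulin genes were called higher and 2 lower, with 0 or 1 lower when any 1 IP library was left out.

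**Figure D5:**
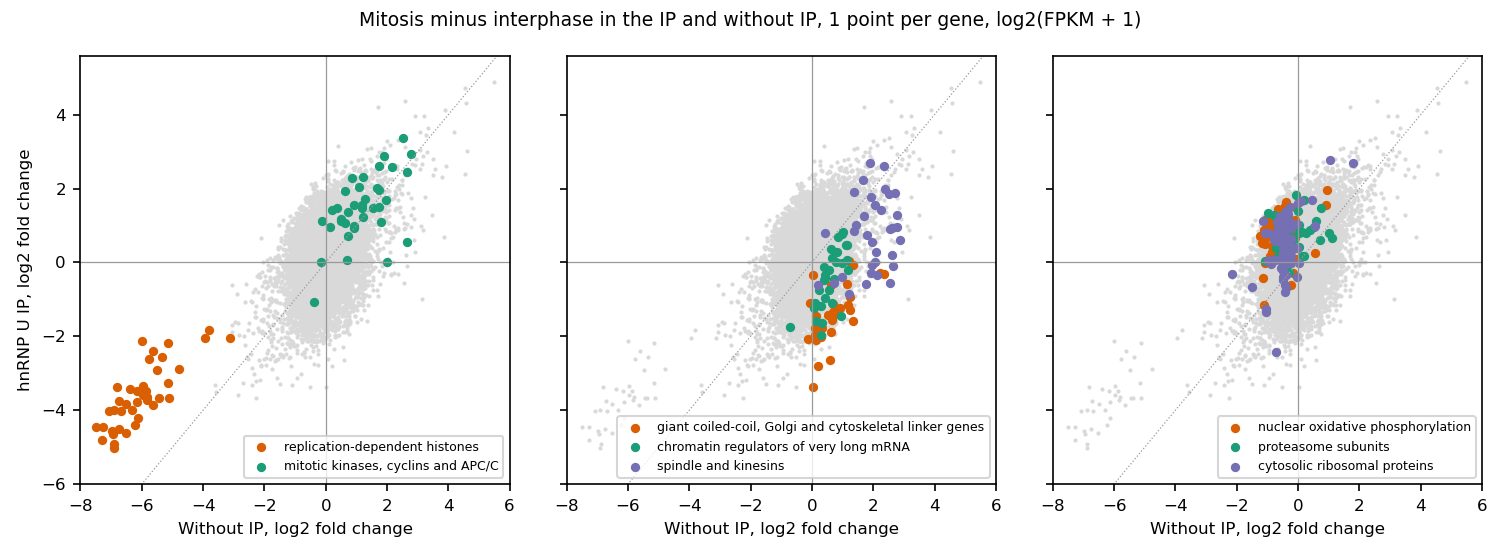
Log2 fold change from interphase to mitosis in the hnRNP U IP (y axis) against that without IP (x axis), 1 point per gene, grey for all 13471 genes, coloured for members of 8 gene groups, with a dotted line of equal change. Histones lie above the line at the lower left, nearly all coiled-coil and chromatin genes below it, and most oxidative phosphorylation, proteasome and ribosomal protein genes above it.

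Cell division genes rose in the mitotic IP, most of them with the RNA without IP. Of 37 mitotic kinases, cyclins and APC/C genes 33 were called higher and 1 lower, with a median of 1.48 in the IP and 1.17 without IP. AURKA, the kinase Aurora A (chromosome 20, 56369389 to 56392337), had 39.5 and 44.3 FPKM in the interphase IP and 411 and 477 in the mitotic IP (3.37 ± 0.17, adjusted p = 2.11e-05). Without IP, AURKA had 33.4 and 32.3 FPKM in interphase and 179 and 207 in mitosis. CDK1, the kinase that drives mitotic entry, had 73.6 and 77.7 FPKM in interphase and 582 and 537 in mitosis. TTK, the spindle checkpoint kinase MPS1, had 41.1 and 46.6 FPKM in interphase and 334 and 347 in mitosis, and its changes of 2.93 in the IP and 2.78 without IP did not differ beyond error (difference 0.15, adjusted p = 0.49). The largest rise among long RNAs that met the naming rule (a mean of at least 5 FPKM in a phase and a file interval of at most 1.5 times the gene) was FAM64A, a cell cycle gene also called PIMREG, with 5.12 and 3.16 FPKM in interphase and 80.1 and 108 in mitosis (4.22 ± 0.21, adjusted p = 2.21e-05). PSRC1, a microtubule-associated protein, PBK, a mitotic kinase, and NUP35, a nuclear pore protein, rose by 3.09, 2.98 and 2.98. SERPINB2, the protease inhibitor PAI-2, had 0.165 and 0.127 FPKM in interphase and 21.8 and 13.2 in mitosis. SNRPB, which encodes the SmB proteins of the spliceosome, had 32.9 and 27.2 FPKM in the interphase IP and 267 and 280 in the mitotic IP, against 160 and 133 and then 189 and 192 without IP. Its difference between the changes was 2.77 (adjusted p = 5.3e-05).

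Spindle genes rose less in the IP than without IP. Of 34 spindle and kinesin genes 21 were called higher and 6 lower in the IP, with a median of 0.83 against 2.02 without IP, and the change was significantly lower in the IP for 24 and higher for 3. Without the second interphase library 3 in place of 6 were lower. KIF11, the motor that STLC inhibits, had 29.5 and 31.3 FPKM in the interphase IP and 51.2 and 66.0 in the mitotic IP (0.92 ± 0.15), while without IP it went from 17.6 and 16.9 to 104 and 107. The difference was -1.63 (adjusted p = 0.00019). TPX2, the spindle activator of Aurora A, had 30.3 and 30.4 FPKM in interphase and 34.2 and 39.6 in mitosis, and without IP 29.9 and 30.0 and then 129 and 136. CENPF, a very large coiled-coil kinetochore protein, had 38.3 and 30.4 FPKM in the interphase IP and 24.2 and 32.1 in the mitotic IP, which overlap, while without IP it rose from 14.4 and 8.30 to 55.3 and 54.1. RACGAP1 and ECT2, which position the cleavage furrow, rose by 2.69 and 2.60. Among 30 kinetochore genes 18 were higher and 2 lower, and CENPA, the centromeric histone H3 variant, rose by 1.88 in the IP and 1.90 without IP. Condensin and cohesin genes were split, with 8 higher and 5 lower of 21, and 3 lower without either interphase library or without the first mitotic library. With all 4 IP libraries these shares were 38.1% higher and 23.8% lower, near the 33.4% and 23.6% of all genes. CDCA5, the cohesin protector sororin, had 9.47 and 7.78 FPKM in interphase and 52.7 and 52.4 in mitosis. Of 36 genes of the nuclear pore and envelope 25 were called higher and 5 lower.

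Many cell division genes are known to carry a cell cycle homology element, TTTGAA, and CCAAT boxes in their promoters. Of 101 cell division genes measured, 85 had a promoter entry in RefSeq (GRCh38.p14, 250 bases before to 50 after the start). On either strand, TTTGAA was found in 55.3% of these 85 windows, in 9.95% of 9858 windows of genes in the gene table and in 15.4% of all 27305 windows. CCAAT was found in 69.4%, 37.0% and 35.7%, and both motifs in 42.4%, 4.19% and 6.08%. The windows of PLK1 and KIF11 are shown as 2 members with both motifs, which are in capitals on either strand. PLK1, the Polo-like kinase, had 6.98 and 5.78 FPKM in the interphase IP and 27.7 and 27.8 in the mitotic IP. Its file interval is 2.73 times the gene, so its reads are less certain. The PLK1 window is chr16:23678639-23678938 on the plus strand and the KIF11 window is chr10:92592880-92593179 on the plus strand, with TTTGAA or its complement 29 and 28 bases before the start. A match is a description of the letters and not evidence of a bound site.
PLK1: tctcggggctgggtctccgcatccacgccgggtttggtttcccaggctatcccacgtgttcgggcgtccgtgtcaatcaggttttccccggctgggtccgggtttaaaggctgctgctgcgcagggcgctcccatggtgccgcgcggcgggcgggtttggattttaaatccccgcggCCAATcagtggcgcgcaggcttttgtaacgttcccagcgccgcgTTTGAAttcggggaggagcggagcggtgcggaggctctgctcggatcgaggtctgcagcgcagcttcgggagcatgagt
KIF11: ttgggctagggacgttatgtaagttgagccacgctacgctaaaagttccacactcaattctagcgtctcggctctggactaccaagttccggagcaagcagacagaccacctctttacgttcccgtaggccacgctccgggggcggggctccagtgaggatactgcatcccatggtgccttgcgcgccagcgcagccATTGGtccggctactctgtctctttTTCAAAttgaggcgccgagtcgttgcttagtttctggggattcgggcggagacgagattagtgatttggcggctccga

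Among signalling and matrix genes, the immediate early genes were mostly lower and the other lists were mixed. Of 25 immediate early genes, which respond to growth factors, 17 were called lower and 2 higher, with a median of -0.78 in the IP and -0.55 without IP. KLF6, a zinc finger transcription factor, had 33.8 and 32.6 FPKM in interphase and 7.72 and 6.92 in mitosis. JUND, an AP-1 subunit, changed by -1.68 in the IP and by -3.06 without IP, from 64.3 and 59.3 to 6.99 and 6.06 FPKM in the latter. Of 26 targets of YAP and TEAD, 11 were lower and 6 higher. MYOF, a membrane repair protein, had 147 and 123 FPKM in interphase and 23.5 and 25.6 in mitosis, and ANKRD1, a cardiac ankyrin repeat protein and YAP target, had 301 and 300 and then 105 and 65.0. Without IP, ANKRD1 had 304 and 259 FPKM in interphase and 437 and 280 in mitosis, which overlap. CTGF, a matrix protein and YAP target, changed by -1.91 ± 0.29 in the IP and by -2.09 without IP. Of 30 collagen and basement membrane genes 12 were lower and 7 higher, and 3 in place of 7 were higher without the second interphase library. Their median was -0.15, and 0.06 once the smooth trends on length and GC were taken out. FN1, fibronectin, had 685 and 495 FPKM in interphase and 222 and 262 in mitosis (-1.27 ± 0.28, adjusted p = 0.00572, and 0.0725 without the first mitotic library). COL4A1, a basement membrane collagen, rose from 28.8 and 20.9 to 88.3 and 63.8 FPKM. Of 25 p53 targets 11 were lower and 5 higher, including TP53INP1 with a change of -1.79 and AEN, an apoptosis-enhancing nuclease, with a rise of 1.82.

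Small RNA genes were measured with less certainty, because most of their file intervals cover a host gene. Of 171 snoRNA and scaRNA genes, 151 had an interval longer than 1.5 times the gene or no match. Of these 151, 57 (37.7%) were called higher and 6 (3.97%) lower, with a median of 1.03. Of the 20 with an interval that fits the gene, 8 (40%) were called higher and 0 lower, with a median of 1.18. SNORA40, an H/ACA snoRNA with a fitting interval (chromosome 11, 93735111 to 93735236), had 10.2 and 11.8 FPKM in the interphase IP and 118 and 144 in the mitotic IP (3.46 ± 0.15, adjusted p = 1.24e-05). Without IP it rose alike, by 3.26. The largest rises among small RNA genes were SNORD99, MIR6728, SNORD110 and SNORD12B, all with long intervals. SNORD99 had 19.2 and 11.1 FPKM in interphase and 406 and 515 in mitosis, a change of 4.88 in the IP and 5.47 without IP. Among small RNA genes called lower, the largest falls were MIR3064, SNORD45B, SNORA53 and SNORD50A, with changes of -2.55, -1.29, -1.14 and -1.06. SNORD45B lost its call without the second interphase or the second mitotic library (adjusted p = 0.0501 and 0.149), and SNORD50A lost its call without either interphase library or the first mitotic library (0.142, 0.0586 and 0.0606). Of 67 box C/D genes 31 (46.3%) were higher and 3 (4.48%) lower, and of 104 H/ACA and scaRNA genes 34 (32.7%) were higher and 3 (2.88%) lower. Over all genes 33.4% were higher and 23.6% lower, so the H/ACA and scaRNA share of higher calls was near that of all genes, and the share of lower calls was below it. With length and GC trends taken out, box C/D genes gave 19 higher and 9 lower with a median of 0.28 in place of 1.06, and H/ACA and scaRNA genes gave 27 higher and 11 lower with a median of 0.35 in place of 1.05. Quantile normalization gave 20 higher H/ACA and scaRNA genes. The H/ACA count ran from 17 without the second interphase library to 79 without the second mitotic library, and it was 21, with 10 lower, without the first mitotic library.

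The genes with the highest mean level in the IP were mostly small RNAs, and most of them did not pass the test. MIR3654, listed inside another gene, had 6404 and 9308 FPKM in interphase and 37910 and 20503 in mitosis (adjusted p = 0.67). It was the highest gene of the microRNA class, which was 2.43% and 3.27% of the FPKM sum in interphase and 8.76% and 5.74% in mitosis. With the 10 highest genes left out, the class held 0.719% and 0.418% in interphase and 0.641% and 0.395% in mitosis. RMRP, the RNA of RNase MRP, had 13086 and 7700 FPKM in interphase and 11574 and 8417 in mitosis, which overlap. RNU2-2P and RNU4-2, U2 and U4 genes, were higher in replicate 1 than in replicate 2 in both phases: RNU4-2 had 10124 and 3058 FPKM in interphase and 6787 and 2495 in mitosis. SNORD114-21 had 6607 and 5365 FPKM in interphase and 2778 and 548 in mitosis (adjusted p = 0.108), and SNORD4A had 1042 and 1085 and then 5285 and 4628. The SNORD4A call (adjusted p = 0.0436) was lost without any 1 of the 4 IP libraries, with adjusted p from 0.128 to 0.197. RNU4-1, SNORA63 and SNORA73A complete the 10 highest, with adjusted p of 0.725, 0.38 and 0.734. Of 15 spliceosomal snRNA genes 0 were called higher and 1 lower by limma, with 4 higher without the second mitotic library, 2 higher without the first interphase library and 3 lower without the first mitotic library. RNU11, of the minor spliceosome, had 148 and 36.2 FPKM in interphase and 377 and 139 in mitosis, and its ranges overlap although each replicate number rose.

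Long noncoding RNAs of the gene table went in both directions. MALAT1, an abundant RNA of nuclear speckles (chromosome 11, 65497688 to 65506516), had 1338 and 1134 FPKM in the interphase IP and 4919 and 3400 in the mitotic IP, and 0.383% and 0.353% of the FPKM sum became 1.07% and 0.895%. The groups did not overlap, but the change of 1.73 ± 0.79 missed the threshold (adjusted p = 0.0967). In the fit to all 8 libraries the adjusted p was 0.000957, and over the fits that left out 1 IP library it was 0.161 to 0.375. Without IP MALAT1 rose by 2.23. NEAT1, the RNA of paraspeckles, had 114 and 77.3 FPKM in interphase and 105 and 98.4 in mitosis, which overlap. OIP5-AS1 had 104 and 113 FPKM in interphase and 56.3 and 45.8 in mitosis (-1.08 ± 0.15), and LINC00657, also called NORAD, had 386 and 458 and then 228 and 237 (adjusted p = 0.0147, and 0.0520 to 0.123 without the second interphase library or either mitotic library). Among 126 LINC-named genes 17 (13.5%) were higher and 31 (24.6%) lower. The share lower was near the 23.6% of all genes, and the share higher was below their 33.4%. The largest change was in LINC01279, with 33.0 and 59.8 FPKM in interphase and 8.41 and 8.19 in mitosis. LINC01279 is annotated as protein-coding despite its name, and its file interval is only 0.098 times the gene's length, so it is an uncertain example of a noncoding RNA. Among 304 antisense-named genes 59 were higher and 62 lower, and 35 were higher without the second interphase library. The antisense shares in the main fit, 19.4% higher and 20.4% lower, were both below those of all genes. RPARP-AS1, whose interval overlaps no other, had 12.5 and 13.9 FPKM in interphase and 2.70 and 2.88 in mitosis. Of the 18 genes annotated as sense intronic, 16 were called higher and 0 lower, with a median of 1.38. Without IP 13 were called higher and 0 lower, with a median of 0.95. Of the 18, 15 have a file interval longer than 1.5 times the gene and 15 share an interval with another gene, so their reads are less certain. Levels were low, with a sum over the class of 20.2 and 14.2 FPKM in the interphase IP.

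The remaining groups are set beside the background of 33.4% higher and 23.6% lower. Of 25 hnRNP genes, the family of HNRNPU, 15 were called higher and 3 lower, with a median of 0.50 in the IP and 0.51 without IP. Core spliceosome proteins gave 13 higher and 12 lower of 43, translation factors 11 and 9 of 36, and aminoacyl-tRNA synthetases 8 and 8 of 20. Genes of the unfolded protein and integrated stress responses gave 12 higher and 4 lower of 24, with 7 higher without the first mitotic library and 1 lower without the second interphase library. Membrane traffic genes gave 17 higher and 7 lower of 35, actin and focal adhesion genes 11 and 11 of 34, and cholesterol synthesis genes 7 and 7 of 23, with 4 lower without the second mitotic library. Solute carriers gave 83 higher and 36 lower of 218. Zinc finger genes of the ZNF family gave 114 higher and 118 lower of 455, with 70 higher without the first interphase library.

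The separate table of 1321 lncRNA features, on build hg19, gave no limma call (0%) between the mitotic and the interphase IP. At an unadjusted p below 0.05 there were 389 features, and the smallest adjusted p was 0.0528. Replicates agreed less here, with r of 0.875 in interphase and 0.873 in mitosis and an SD of the log2 difference between replicates of 1.06 and 1.11. In 365 features both mitotic values were above both interphase values, and in 402 they were below. Other fits of the same table called up to 183 higher and 180 lower, as listed with the other settings. The feature with the highest level, XLOC_002583 (chromosome 11, 65190244 to 65278499), was singled out after its values were seen. It had 34287 and 31325 FPKM in interphase and 108398 and 87650 in mitosis, a change of 1.57 ± 0.25 (adjusted p = 0.0579). MALAT1 and NEAT1 also lie on chromosome 11, and whether this feature covers them was not tested, because the builds differ. Both sets of values come from the same libraries, so this rise is not independent of the changes given above.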

How the data were processed

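The 2 deposited tables of FPKM values are 1 of 13471 genes (hg38) and 1 of 1321 lncRNA features (hg19), each analysed on its own. Per the submitters' processing notes TopHat and StringTie were used by the authors; their versions and roles are not given in the sources used here. The ratio columns deposited by the authors equal quotients of the FPKM values and were not tested. Groups came from the labels. Values were taken as log2(FPKM + 1) without a filter. Mitotic and interphase IP libraries were compared with limma 3.58.1 in R 4.3.3 (empirical Bayes with trend, 2 residual degrees of freedom), with Benjamini-Hochberg adjustment over each table. The difference from the change without IP was an interaction term over all 8 libraries. The model was tested on simulated data with 200 changed features and noise drawn independently for each library. Of simulated log2 changes of 1 it recovered 100% in the gene table and 46% in the lncRNA table. False calls were 3.38% and 0.68% of calls. The correlated deviations of same-numbered libraries were not simulated. An exact permutation test of 2 against 2 cannot go below p = 0.333 and was not used. Of the genes, 97.8% matched GENCODE release 29, and 21.3% overlap the interval of another gene; how shared reads were counted is not given in the sources used here. Named long RNAs were the 10 largest called changes per direction with non-overlapping groups, a mean of at least 5 FPKM in a phase and a file interval of at most 1.5 times the gene. The 4 largest per direction of small RNA genes, the 10 highest genes and the largest or highest members of each list were named as well. Members and lists were chosen with earlier results of these data known. Alternatives covered pseudocount, filter, scaling, libraries fitted, replicate block, length and GC trends and each library left out. 1 of the largest falls outside the histones is not reported here.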

Additional observations from a re-analysis of the deposited data

Results flagged for a closer look

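The change from interphase to mitosis differed between the IP and the RNA without IP, by the interaction test of limma over all 8 libraries. Of 13471 genes the change was higher in the IP for 3662 (27.2%) and lower for 2677 (19.9%), which is the background for the groups below. By gene group, it was higher in the IP for 39 of 40 histone genes, whose fall was smaller there. It was also higher for 72 of 81 oxidative phosphorylation genes, 59 of 77 mitochondrial ribosomal protein genes, 55 of 83 cytosolic ribosomal protein genes and 24 of 37 proteasome genes. It was lower in the IP for 31 of 32 coiled-coil, Golgi and linker genes, for 24 of 30 chromatin regulators of very long mRNA and for 24 of 34 spindle and kinesin genes. With 2 libraries in each group, no library was tested for standing apart from its group.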

How the results depend on the processing

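The counts of 4494 higher and 3184 lower genes were 4489 and 3176 with a pseudocount of 0.1, 3846 and 3930 with median centring, 4817 and 3452 with all 8 libraries fitted, and 1732 and 1137 for changes of at least 2-fold. Leaving out 1 IP library gave 3572 to 4228 higher and 2510 to 2840 lower. With the replicate number as a block the counts were 4941 and 3490, and the interaction counts 3988 and 2925. The numbers are shared only as numbers: deviations of same-numbered IP libraries correlated at 0.326 in the gene table and 0.665 in the lncRNA table. With the block, 77 H/ACA and scaRNA genes and 48 box C/D genes were called higher, in place of 34 and 31. The lncRNA table gave 38 higher and 11 lower calls at a mean FPKM of at least 1, 110 and 84 with all 8 libraries and 183 and 180 with the replicate block. Among list medians over 0.2 in size and over the replicate spread, signs reversed for the snRNA median, at 0.94 without ip_interphase replicate 1 and 0.42 without ip_mitosis replicate 2 over a leave-one-out range of -1.06 to 0.94, and for the chromatin regulator median, at 0.0033 with length and GC trends removed, with or without the replicate block. Medians of 14 lists closer to 0, between -0.18 and 0.12, changed sign in 44 list and setting pairs, collagens and cholesterol synthesis among them. Signs also reversed for the microRNA share, which differed by -0.050 percentage points without the 10 highest genes, and for the share of unmatched genes weighted by length, at 0.000605. The cause was not tested. No named gene reversed its sign. Total fragments are unknown, which limits what can be said of low values.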
